A study of Mus musculus with 24 samples.

Results

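The erythroid identity genes are 29 named genes that mark cells of the red blood cell lineage, and 27 of them were found by symbol among the 21671 genes of the RNA-Seq tables. The other two genes, Hba-a1 and Hbb-b2, were not used here. The 27 genes fall into 6 transcription factors and cofactors (Klf1, Gata1, Tal1, Lmo2, Nfe2, Zfpm1), 4 early enzymes and receptors (Car1, Car2, Epor, Tfrc), 12 membrane and surface genes (Slc4a1, Ank1, Sptb, Add2, Rhag, Rhd, Ermap, Tspan33, Cldn13, Aqp1, Icam4, Kel), 3 further enzymes and regulators (Bpgm, Pklr, Trim10) and 2 globins (Hba-a2, Hbb-b1). The rule that picks them uses names and no measured value, but the list was drawn up with earlier results of these data known.

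RNA was measured in 24 libraries from the spleens of C57/Bl6 mice aged 8 weeks, wild-type or Trp53-/-, the latter lacking the tumour suppressor p53. Mice received 7 Gy of whole-body ionizing radiation (IR) and were taken 4 h later, or were mock-treated. Each of the 8 groups of cell fraction, genotype and treatment held 4 wild-type or 2 Trp53-/- libraries. Both fractions were prepared after hypotonic lysis of red blood cells, so all groups had been depleted of mature erythrocytes before RNA was taken. The B fraction was what magnetic beads against B220 retained, and the non-B fraction was what ran through the column, a mixture of other splenic cells. Levels are RPKM, reads per kilobase of exon scaled to the size of the library, which corrects for gene length. Duplicate reads were removed before counting, which capped the highest levels, so levels of different genes compare only roughly. In a mixture of cells, a lower RPKM can come from fewer erythroid cells or from less RNA per cell, and these cannot be told apart in these libraries.

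The mouse spleen, unlike the human spleen, makes red blood cells throughout life. Erythropoietin acts through its receptor on early progenitors, which divide and then, under GATA1, TAL1 and KLF1, switch on the genes for iron uptake, the membrane skeleton, blood group antigens and haemoglobin. Car1 and the transcription factor genes mark the earlier, nucleated stages, whereas globin mRNA also persists in reticulocytes, the young red cells that have lost the nucleus.

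B cell genes were higher in the B fraction and T cell genes in the non-B fraction, but neither fraction was free of the other's genes. Macrophage genes were higher in the B fraction: in unstressed wild-type mice 8 of them summed to 454 to 600 RPKM in B and 298 to 336 RPKM in non-B. In unstressed wild-type mice the summed level of 8 B cell genes was 944 to 1088 RPKM in the B fraction and 321 to 517 RPKM in the non-B fraction, and that of 8 T cell genes was 64.4 to 73.3 RPKM in B and 386 to 565 RPKM in non-B. Trp53 lay at 43.4 to 49.5 RPKM in the 4 unstressed wild-type non-B libraries and at 23.97 and 25.04 RPKM in the Trp53-/- ones, so whole-gene RPKM did not show the deletion as an absence. The p53 target Cdkn1a lay at 69.6 to 88.3 RPKM in irradiated wild-type non-B libraries and at 2.42 and 2.63 RPKM in irradiated Trp53-/- ones. Estimated depth was 4.76 to 11.05 M reads, with a median of 8.80 M. A measure whose origin is not known moved with the irradiated wild-type groups. Of 1434 olfactory and vomeronasal receptor genes, which splenic cells are not known to use, 5.30 to 9.21% were above 0 in unstressed libraries. The shares were 6.76 to 13.04% in irradiated Trp53-/- libraries and 6.97 to 51.3% in irradiated wild-type libraries. In the irradiated wild-type non-B libraries the shares were 24.6, 8.51, 51.3 and 35.8% for replicates 1 to 4, and results that rest on these libraries are given below also without those over 20%.

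The sequence before the start site was searched for letters that erythroid factors bind. GATA1 binds the letters GATA with flanking preferences, and KLF1 binds CACCC-like boxes. Windows of 250 bases before the start sites of RefSeq were searched on both strands for AGATAA, for AGATAG, for TGATAA and for TGATAG (called GATA letters here) and for CCNCNCCC (called CACCC letters, an 8-letter pattern that also takes in GC boxes, and whose matches may overlap each other). Of 19 members with a window, 12 held GATA letters (63.2%), against 29.7% of all 27025 genes with a window, and 11 held CACCC letters (57.9%), near the 48.5% of all genes. Both shares describe the letters in the windows and say nothing of binding. The 5 stretches below are shown because they stand before genes that the results turn on: Klf1 itself, the receptor gene Epor, the membrane gene Rhd and the red cell enzyme gene Pklr with GATA letters, and the water channel gene Aqp1, which has none and only CACCC letters. Capitals mark the GATA and CACCC letters on either strand, and all stretches read 5′ to 3′ on the gene's strand, from RefSeq windows of build GRCm38.p6 placed by exact match in NCBIM37 (mm9).
Klf1: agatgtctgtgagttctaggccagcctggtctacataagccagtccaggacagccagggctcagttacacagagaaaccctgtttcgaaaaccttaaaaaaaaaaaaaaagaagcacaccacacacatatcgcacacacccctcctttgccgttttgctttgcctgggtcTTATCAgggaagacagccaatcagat
Epor: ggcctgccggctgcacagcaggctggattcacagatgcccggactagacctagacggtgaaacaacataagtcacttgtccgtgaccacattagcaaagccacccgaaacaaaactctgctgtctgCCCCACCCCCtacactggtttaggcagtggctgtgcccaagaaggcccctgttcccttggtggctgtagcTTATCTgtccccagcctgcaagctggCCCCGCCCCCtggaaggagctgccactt
Rhd: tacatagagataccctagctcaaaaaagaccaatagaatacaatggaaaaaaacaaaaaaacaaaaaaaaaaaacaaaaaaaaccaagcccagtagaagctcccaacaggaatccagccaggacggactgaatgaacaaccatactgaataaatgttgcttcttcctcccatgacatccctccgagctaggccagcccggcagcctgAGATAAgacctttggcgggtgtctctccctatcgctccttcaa
Pklr: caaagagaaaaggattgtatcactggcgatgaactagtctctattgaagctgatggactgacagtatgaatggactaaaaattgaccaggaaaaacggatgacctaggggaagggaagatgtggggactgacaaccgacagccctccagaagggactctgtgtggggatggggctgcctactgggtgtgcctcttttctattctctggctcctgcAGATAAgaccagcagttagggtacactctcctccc
Aqp1: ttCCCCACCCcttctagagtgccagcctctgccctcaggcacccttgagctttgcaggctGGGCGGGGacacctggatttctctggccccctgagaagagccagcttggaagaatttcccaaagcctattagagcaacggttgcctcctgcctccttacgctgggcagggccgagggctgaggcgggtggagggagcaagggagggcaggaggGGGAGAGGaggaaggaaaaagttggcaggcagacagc
The stretches lie at chr8:87425631-87425826 on the plus strand for Klf1 (196 bases, the part of its window before the first annotated base of the gene), chr9:21768021-21768270 on the minus strand for Epor, chr4:134420201-134420450 on the plus strand for Rhd, chr3:88939814-88940063 on the plus strand for Pklr and chr6:55286043-55286292 on the plus strand for Aqp1. All 5 are upstream of the annotated gene. The GATA letters began 80 bases before the start site in Klf1, 54 in Epor, 43 in Rhd and 35 in Pklr.

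In wild-type non-B cells, most of the erythroid genes fell within 4 h of irradiation and none rose. Tests used limma on log2(RPKM + 0.5) over all 14018 genes above a filter on low values, and a gene was called at a Benjamini-Hochberg adjusted p under 0.05 with an absolute log2 fold change above 0.58; folds on this scale understate the change of low genes. Of the 27 genes, 19 were called lower, against 4.11% of all genes tested, and 0 were called higher, against 5.74%. The median log2 fold change was -2.11 for the 27 genes and -0.03 for all genes tested, and 26 of 27 lay below 0. All 4 irradiated libraries lay below all 4 unstressed libraries for 16 of the 27 genes, against 12.1% of all genes. All 27 genes passed the filter, Pklr through its unstressed libraries alone.

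**Figure D1:**
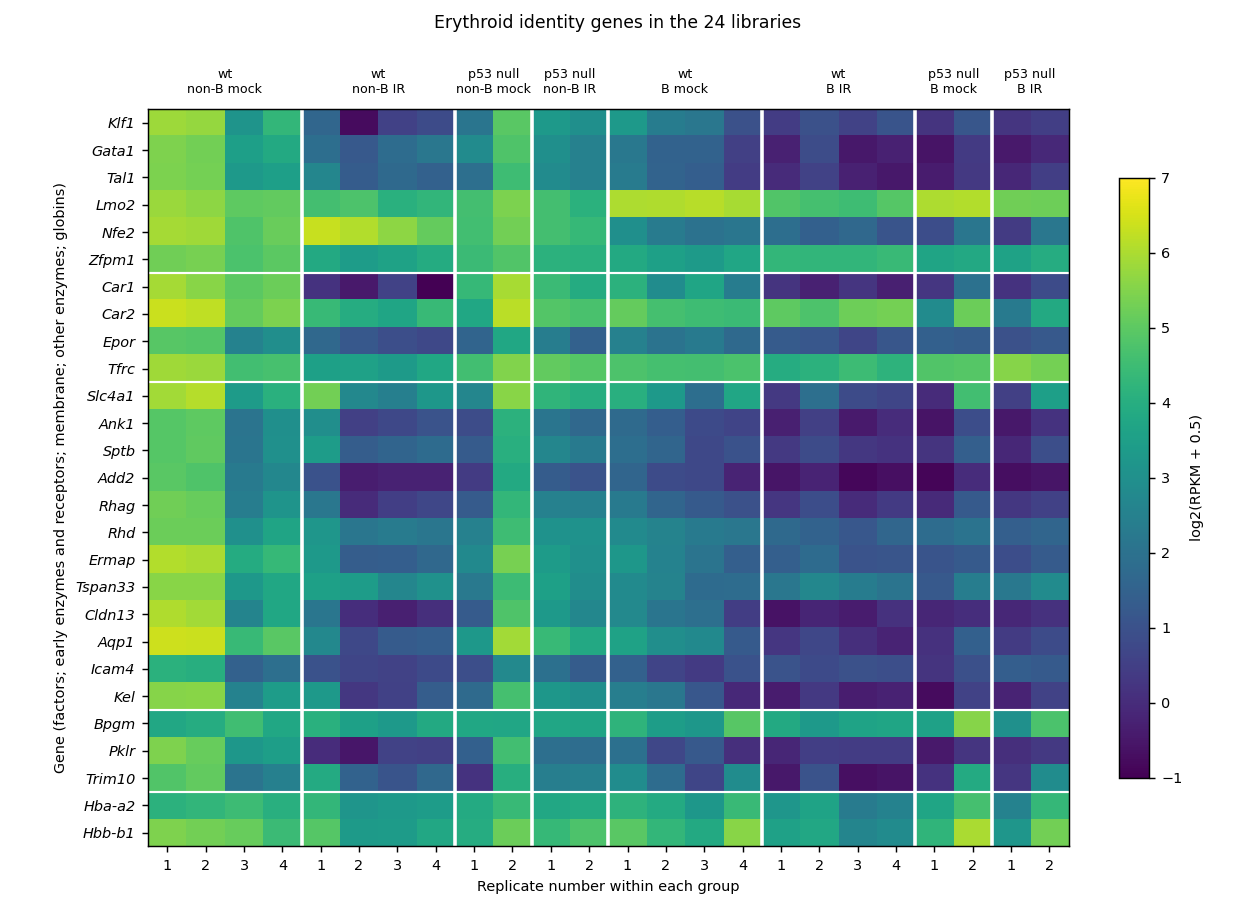
Levels of the 27 erythroid genes (rows, grouped by role) in the 24 libraries (columns, by group and replicate), coloured by log2(RPKM + 0.5). The summed level of the 27 genes is 391 to 1217 RPKM in the unstressed and 167 to 356 RPKM in the irradiated wild-type non-B libraries.

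Among the factors, Klf1, which encodes the activator of the adult beta-globin gene and of much of the red cell programme, fell furthest. It lay at 56.0, 52.8, 8.23 and 19.2 RPKM in the unstressed and at 2.59, 0.092, 0.968 and 1.27 RPKM in the irradiated wild-type non-B libraries, a log2 fold change of -4.18 (SE 0.73, limma adjusted p = 0.0033). Every irradiated library lay below every unstressed one, and the lowest of them, irradiated replicate 2, holds about 1 read. Gata1, the master regulator of the lineage, was at 43.2, 38.8, 10.9 and 14.1 RPKM before and at 3.17, 1.85, 3.06 and 4.04 RPKM after irradiation (log2 fold change -2.75, SE 0.49, limma adjusted p = 0.0036). Tal1, the factor that joins GATA1 in activating complexes, went from 42.7, 40.1, 9.29 and 10.96 RPKM to 5.81, 2.02, 2.86 and 2.27 RPKM (-2.59, SE 0.61, limma adjusted p = 0.0153). Neither gene's groups overlapped. Zfpm1, which encodes a GATA1 cofactor, and Lmo2, which encodes the bridging protein of the TAL1 complex, fell by less. Zfpm1 was at 37.6, 40.2, 26.2 and 31.3 RPKM and then at 14.1, 10.2, 11.6 and 14.6 RPKM (-1.38, SE 0.15, limma adjusted p = 0.00014), the smallest standard error of the 27. Lmo2 was at 55.1, 49.7, 32.1 and 33.6 RPKM and then at 23.97, 26.4, 16.2 and 18.8 RPKM (-0.97, SE 0.23, limma adjusted p = 0.0170).

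Nfe2 was the exception among the factors. It encodes a bZIP subunit used by erythroid cells and, more widely, by megakaryocytes and other myeloid cells. It lay at 60.6, 57.4, 27.3 and 35.6 RPKM in the unstressed and at 79.8, 66.5, 49.2 and 33.7 RPKM in the irradiated wild-type non-B libraries. The 2 groups overlapped, and the log2 fold change of 0.34 (SE 0.30) did not pass the limma test (adjusted p = 0.459). It was the only one of the 27 genes with a value above 0 in this comparison.

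All 4 early enzyme and receptor genes fell, and none of their groups overlapped. Car1 encodes a carbonic anhydrase that is abundant from the colony-forming stage on. Its 4 irradiated wild-type non-B libraries held 0.617, 0.226, 1.01 and 0 RPKM, about 6, 2, 10 and 0 reads, where 3 reads would give 0.248 RPKM in the library at 0, against 31.2 to 60.6 RPKM in the unstressed libraries. Its log2 fold change of -5.61 (SE 0.39, limma adjusted p = 4.09e-06) was the lowest of all 14018 genes tested. Car2, a second carbonic anhydrase that is also used outside the lineage, went from 82.2, 74.1, 33.7 and 42.6 RPKM to 20.3, 14.9, 12.4 and 20.4 RPKM (-1.68, SE 0.44, limma adjusted p = 0.0236). The erythropoietin receptor gene Epor was at 29.6, 28.4, 5.30 and 7.24 RPKM and then at 2.77, 1.78, 1.39 and 1.18 RPKM (-2.67, SE 0.60, limma adjusted p = 0.0123). Tfrc, the transferrin receptor gene through which dividing cells and erythroblasts take up iron, was at 57.9, 55.4, 23.4 and 25.0 RPKM and then at 11.1, 11.3, 9.66 and 13.1 RPKM (-1.68, SE 0.30, limma adjusted p = 0.0037).

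Of the 12 membrane and surface genes, 8 fell and all 12 had values below 0, with a median log2 fold change of -2.66. The water channel gene Aqp1 lay at 82.9, 81.2, 20.5 and 30.5 RPKM and then at 6.18, 1.17, 1.95 and 2.11 RPKM (-3.98, SE 0.62, limma adjusted p = 0.0017). Cldn13, a claudin gene of the mouse erythroid lineage, went from 65.0, 59.1, 5.58 and 13.2 RPKM to 3.96, 0.526, 0.320 and 0.545 RPKM (-4.09, SE 0.90, limma adjusted p = 0.0114). Add2, which encodes beta-adducin of the membrane skeleton, went from 30.2, 27.1, 4.36 and 5.95 RPKM to 1.503, 0.275, 0.357 and 0.342 RPKM (-3.63, SE 0.76, limma adjusted p = 0.0088). None of these 3 genes' groups overlapped.

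Rhag, Ermap and Icam4 also had no overlap between groups. Rhag, the Rh-associated glycoprotein gene, had a log2 fold change of -3.15 (SE 0.77, limma adjusted p = 0.0175), with 4.80 to 37.8 RPKM before and 0.486 to 4.04 RPKM after irradiation. Ermap, which encodes an erythroblast membrane protein of the butyrophilin type, fell by 3.13 on the log2 scale (SE 0.66, limma adjusted p = 0.0087) and Icam4, an adhesion receptor gene of the red cell surface, by 2.11 (SE 0.59, limma adjusted p = 0.0303). Rhd, the Rh antigen gene, and Kel, which encodes the Kell ecto-enzyme, were called although their groups overlapped. Rhd was at 36.7, 36.5, 7.63 and 12.2 RPKM and then at 8.77, 3.88, 4.52 and 3.90 RPKM (-1.83, SE 0.54, limma adjusted p = 0.0367), and Kel was at 45.9, 47.2, 5.35 and 10.3 RPKM and then at 9.54, 0.727, 0.954 and 2.09 RPKM (-2.89, SE 0.86, limma adjusted p = 0.0383). In both, irradiated replicate 1 lay above unstressed replicate 3.

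The remaining 4 membrane genes did not pass the test. Slc4a1, the anion exchanger gene known as band 3, was at 58.7, 69.0, 10 and 16.5 RPKM and then at 38.8, 6.22, 5.00 and 8.89 RPKM (-1.44, SE 0.80, limma adjusted p = 0.225). Sptb, the beta-spectrin gene, was at 29.4, 32.4, 3.81 and 7.63 RPKM and then at 10.1, 2.04, 2.51 and 2.97 RPKM (-1.73, SE 0.75, limma adjusted p = 0.124). In both genes 3 irradiated libraries lay below all unstressed ones, and replicate 1 lay among the unstressed ones. Ank1, the ankyrin gene that links spectrin to band 3, had a log2 fold change of -2.43 (SE 0.83, limma adjusted p = 0.0619). With the replicate number as a block its limma adjusted p was 0.0423, and the count of genes called lower then rose to 20. Tspan33, a tetraspanin gene, had a log2 fold change of -1.38 (SE 0.58, limma adjusted p = 0.113).

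Of the enzymes and regulators, Pklr, the pyruvate kinase gene of liver and red cells, fell, and the others did not pass the test. Pklr was at 43.6, 35.1, 8.85 and 10.7 RPKM in the unstressed and at 0.504, 0.201, 0.979 and 0.937 RPKM in the irradiated wild-type non-B libraries (-4.19, SE 0.65, limma adjusted p = 0.0017). The groups lay far apart, and irradiated replicate 1 was not the highest of its group. Bpgm, whose enzyme makes the phosphoglycerate that lowers haemoglobin's affinity for oxygen, was at 13.3, 14.97, 23.0 and 13.2 RPKM and then at 16.3, 11.1, 9.46 and 13.97 RPKM (-0.32, SE 0.19, limma adjusted p = 0.258). Trim10, which encodes a RING finger protein of late erythroid cells, was at 28.1, 33.3, 3.75 and 5.12 RPKM and then at 14.2, 2.38, 1.63 and 2.77 RPKM (-1.57, SE 0.92, limma adjusted p = 0.250).

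Of the globin genes, Hbb-b1 fell and Hba-a2 did not pass the test. Hba-a2, an alpha-globin gene, was at 17.2, 18.6, 21.9 and 16.02 RPKM before and at 19.3, 8.46, 9.39 and 10.3 RPKM after irradiation, a log2 fold change of -0.68 (SE 0.22) that did not pass the limma test (adjusted p = 0.0519). Hbb-b1, a beta-globin gene, was at 43.3, 38.9, 34.5 and 21.5 RPKM and then at 29.3, 9.83, 9.98 and 13.3 RPKM (-1.23, SE 0.36, limma adjusted p = 0.0381). In both genes irradiated replicate 1 lay above at least 1 unstressed library and the other 3 irradiated libraries lay below all unstressed ones. These values have limits: Hba-a2 and Hbb-b1 have near-identical neighbours that can share reads, and removal of duplicate reads before counting capped the highest level of any gene at 157 to 307 RPKM per library.

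**Figure D2:**
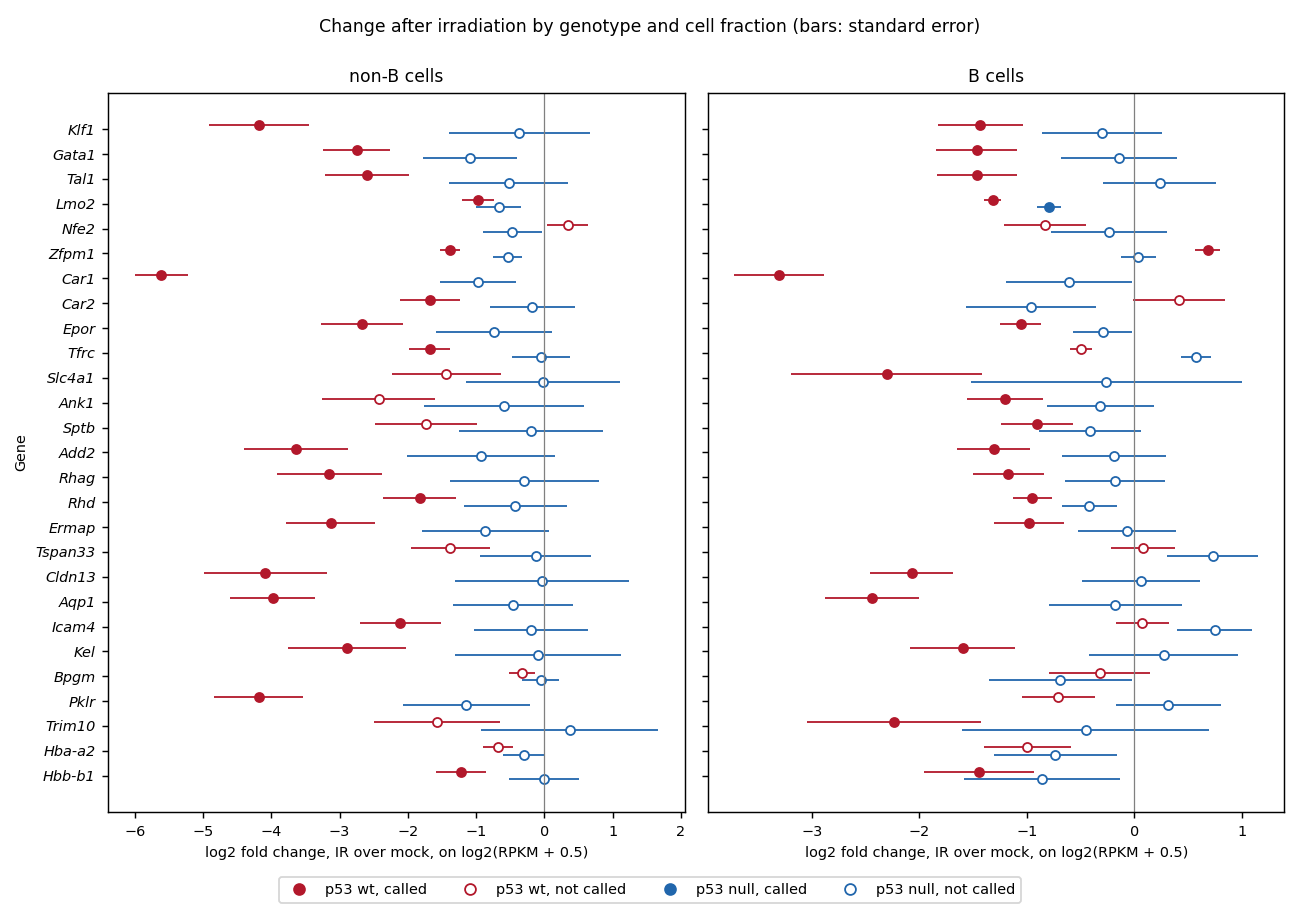
Log2 fold change (IR over mock) of each of the 27 genes with its standard error, in wild-type and Trp53-/- non-B and B cells. In wild-type non-B cells 26 of 27 points lie below 0 and 19 are called lower, and in Trp53-/- non-B cells 0 are called, with standard errors of up to 1.30.

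The 27 genes varied together among libraries of 1 group. In unstressed wild-type non-B cells, replicates 1 and 2 both lay above replicates 3 and 4 for 25 of the 27 genes, against 33.7% of all genes tested, and the exceptions were Bpgm and Hba-a2. In the 25 genes, the lower of replicates 1 and 2 over the higher of replicates 3 and 4 had a median ratio of 3.27 and a highest ratio of 5.50. Other gene lists split the same libraries. For replicates 1 to 4 the summed level was 528, 494, 213 and 240 RPKM for 10 proliferation genes, 812, 745, 388 and 476 RPKM for 8 neutrophil genes, and 386, 410, 565 and 562 RPKM for 8 T cell genes. Proliferation and neutrophil genes were thus higher in replicates 1 and 2, as the erythroid genes were, and T cell genes were lower, and their part in the split was not tested. Standard deviations of the erythroid genes were wide, for example 34.1 ± 23.9 RPKM for Klf1 and 17.6 ± 13.2 RPKM for Epor (SD, n = 4). In irradiated wild-type non-B cells, replicate 1 was the highest of 4 for 20 of the 27 genes, against 23.5% of all genes tested. The exceptions were Gata1, Lmo2, Zfpm1, Car1, Car2, Tfrc and Pklr, that is 3 of the 6 factor genes, 3 of the 4 early genes and 1 enzyme gene, but none of the membrane or globin genes.

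**Figure D3:**
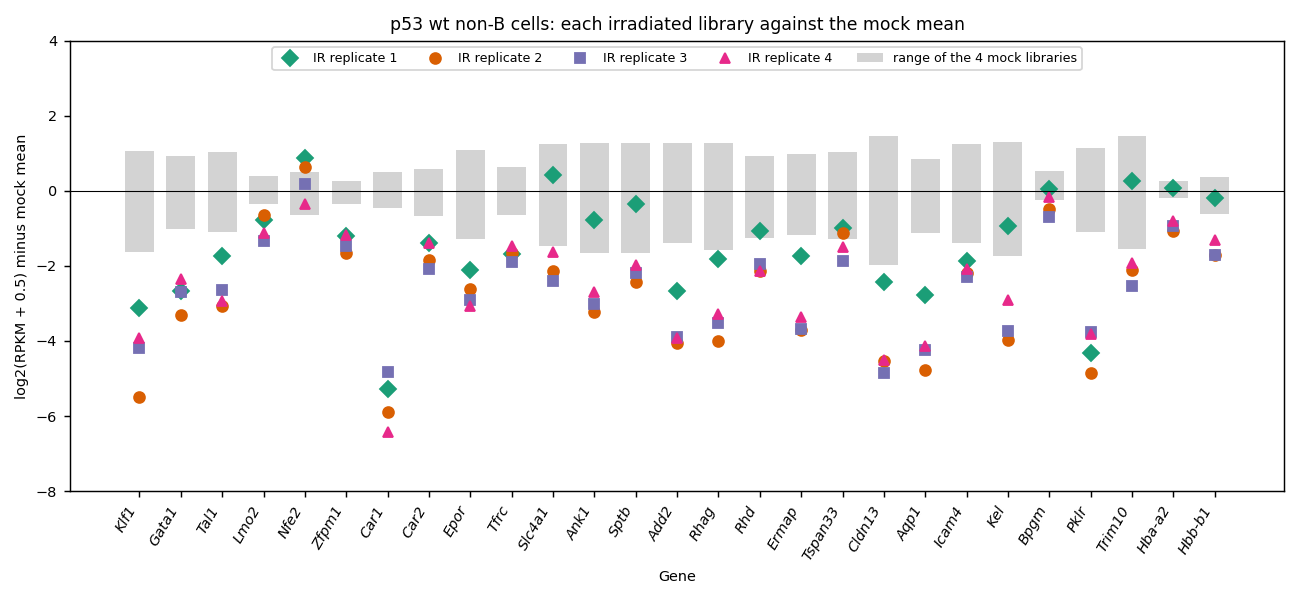
Log2(RPKM + 0.5) of the 27 genes in each irradiated wild-type non-B library, as the difference from the mean of the 4 unstressed wild-type non-B libraries, with grey bars for the range of those 4 libraries. For Slc4a1, Trim10 and the globin genes replicate 1 lies within or near the grey bars, whereas for Klf1, Car1 and Pklr all 4 libraries lie below them.

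The count of 19 depended on which libraries were used. It was 16 with wild-type replicates 1 and 2 alone, 7 with replicates 3 and 4 alone (Klf1, Zfpm1, Car1, Tfrc, Ermap, Aqp1 and Hba-a2), 6 with the receptor gene level as a covariate (Klf1, Gata1, Zfpm1, Car1, Aqp1 and Pklr), and 3 with irradiated wild-type replicate 2 as the sole irradiated wild-type library under the limit of 20% of receptor genes (Zfpm1, Car1 and Hba-a2). In that last fit the lone library was assumed to vary like the other groups, and the median log2 fold change was -2.42. Zfpm1 and Car1 were called lower in all 4 of these fits. Without irradiated replicate 3 the count was 12 and without irradiated replicate 1 it was 20. Leaving out single libraries ended the call of Lmo2 and Rhag (both without irradiated replicate 3) and, in more than 1 case each, of Car2, Rhd, Icam4, Kel and Hbb-b1, and the other 12 calls held throughout. The number of all genes called lower moved too. It was 576 of 14018 in the main fit and 1016 of 13700 with wild-type replicates 1 and 2 alone. With replicates 3 and 4 alone it was 292 of 13791, and with the receptor gene covariate 144 of 14018.

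Genes of other cell types in the same libraries were counted beside these values. Of 8 T cell genes 1 was called lower, of 8 B cell genes 1, and of 8 macrophage and 8 neutrophil genes 0 by limma, with 4 and 2 genes at an unadjusted p under 0.05. Of 10 proliferation genes 5 were called lower, among them Ccnb1, Cdk1, Ccna2 and Mcm2, and their summed level moved from 213 to 528 RPKM in unstressed to 141 to 212 RPKM in irradiated wild-type non-B libraries. The part of dividing cells in the fall of the erythroid genes was not tested.

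Other genes of the lineage were taken from fixed lists. Of 16 haem synthesis and iron genes 6 were called lower in irradiated wild-type non-B cells and 0 higher, with a median log2 fold change of -0.95. Among those with the largest changes were Tspo2 (-2.42, limma adjusted p = 0.0518, not called), the ferrireductase gene Steap3 (-2.13, limma adjusted p = 0.0131) and the haem pathway genes Cpox (-1.58, limma adjusted p = 0.0187) and Alad (-1.44, limma adjusted p = 0.0246). Of 26 tested further erythroid genes 7 were called lower and 0 higher, with a median of -0.75. Gfi1b, which encodes a repressor that works with GATA1, went from 31.7, 25.7, 5.33 and 10.1 RPKM to 1.69, 0.541, 1.00 and 0.427 RPKM (-3.50, limma adjusted p = 0.0036). Hemgn, a haematopoietic nuclear protein gene, went from 54.8, 55.9, 5.28 and 14.9 RPKM to 6.41, 1.03, 1.11 and 1.26 RPKM (-3.29, limma adjusted p = 0.0206). The dematin gene Dmtn (-1.99, limma adjusted p = 0.180) was not called. Of 9 progenitor genes 2 were called lower, Gata2 (-0.81, limma adjusted p = 0.0139) and Myb (-0.61, limma adjusted p = 0.0305).

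In Trp53-/- non-B cells, none of the 27 genes was called after irradiation, with 1 gene at an unadjusted p under 0.05 in the limma fit. The background was 0.25% of all genes called lower and 0.193% called higher. The median log2 fold change was -0.37, and it was -1.55 without unstressed replicate 1 and 0.72 without unstressed replicate 2. The 2 unstressed libraries lay far apart. Replicate 2 lay above replicate 1 for 26 of the 27 genes (all but Bpgm), against 48.2% of all genes, with a median ratio of 5.89. Klf1 was at 3.77 and 30.6 RPKM in the unstressed and at 9.56 and 7.42 RPKM in the irradiated libraries, so that the irradiated values lay between the unstressed ones. Gata1 was at 6.83 and 27.5 RPKM and then at 7.46 and 5.20 RPKM. Car1 was at 19.9 and 61.8 RPKM and then at 21.3 and 14.8 RPKM, both far above the highest irradiated wild-type value of 1.01 RPKM. With 2 libraries in each group, the standard error was 1.03 for Klf1 and 0.56 for Car1.

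The difference between the genotypes' responses was tested directly in the non-B fit. Car1 was the 1 gene called, with a response that was lower in wild-type cells by 4.64 on the log2 scale (SE 0.68, limma adjusted p = 0.0034), against 2.82% of all genes called lower. No gene was called higher, against 3.72% of all genes, and 7 of the 27 had an unadjusted p under 0.05. The median difference over the 27 genes was -1.84, against -0.02 over all genes. Aqp1 (-3.52, SE 1.08, limma adjusted p = 0.0707), Zfpm1 (-0.84, SE 0.26, limma adjusted p = 0.0734), Tfrc (-1.63, SE 0.52, limma adjusted p = 0.0786) and Klf1 (-3.82, SE 1.27, limma adjusted p = 0.0882) came nearest to the threshold without passing. In the tests of known changes on simulated data of this design, 63 of 100 differences of 1.5 on the log2 scale had a limma adjusted p under 0.05. All genes had the same spread in those data, so that share does not give the power for members that varied more. With irradiated wild-type replicate 2 as the sole irradiated wild-type library the Car1 call was kept, as it was when any single library was left out. The count rose to 4 without unstressed Trp53-/- replicate 2 (Car1, Car2, Aqp1 and Pklr) or without unstressed wild-type replicate 3 (Klf1, Zfpm1, Car1 and Tfrc).

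Before irradiation, none of the 27 genes was called between the genotypes in non-B cells, with 1 at an unadjusted p under 0.05 in the limma fit, and 0.0285% of all genes were called lower and 0.0143% higher in Trp53-/- cells. All 27 fitted values lay below those of wild-type cells, with a median log2 difference of -1.005 that was 0.23 without unstressed Trp53-/- replicate 1 and -2.24 without replicate 2. Summed over the 27 genes, the 2 Trp53-/- libraries held 230 and 804 RPKM and the 4 wild-type libraries 391 to 1217 RPKM, so the groups overlapped.

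Before irradiation, most erythroid genes were lower in the B than in the non-B fraction. Beads split each suspension into both fractions, so B and non-B libraries may share mice. The labels do not say which, and the fit treated the libraries as independent. In unstressed wild-type mice 20 of the 27 genes were called higher in non-B than in B cells, against 17.2% of all 14598 genes tested, and Lmo2 alone was called lower, against 7.38%. The median log2 difference was 2.29. Klf1 lay at 9.32, 4.59, 4.01 and 1.49 RPKM in the 4 unstressed wild-type B libraries (log2 difference 2.54, SE 0.59, limma adjusted p = 0.0023), and all 4 fell below 3 of the 4 non-B libraries. The largest differences were those of Pklr (3.33, SE 0.47, limma adjusted p = 2.68e-05), Gata1 (3.09, SE 0.44, limma adjusted p = 2.78e-05) and Nfe2 (3.07, SE 0.29, limma adjusted p = 4.23e-07). Lmo2, which B cells also express, was at 63.8, 65.5, 69.4 and 61.6 RPKM in B, above all 4 non-B libraries (-0.64, SE 0.17, limma adjusted p = 0.0058), a call that was lost without non-B replicate 3 or 4. Bpgm (0.07), Hba-a2 (0.31) and Hbb-b1 (0.41) had small log2 differences that did not pass the test. Among the unstressed wild-type B libraries, replicate 4 held the highest values of these 3 genes (29.7, 20.7 and 46.8 RPKM) and the lowest value of 16 other members. That library was the highest of 4 for 27.7% and the lowest for 33.9% of all genes tested.

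Irradiated wild-type B cells had lower levels of most erythroid genes. Of the 27 genes 18 were called lower, against 12.2% of all 13821 genes tested, and Zfpm1 was called higher, against 12.5%. The median log2 fold change was -1.17. The filter was passed through unstressed libraries alone by 7 members (Tal1, Car1, Ank1, Add2, Cldn13, Kel and Pklr), and for 11 of the 27 genes every irradiated library lay below every unstressed one, against 23.3% of all genes. Car1 was at 17.3, 6.84, 12.5 and 4.59 RPKM and then at 0.648, 0.334, 0.667 and 0.310 RPKM (-3.31, SE 0.42, limma adjusted p = 3.40e-05). Aqp1 was at 11.7, 7.19, 6.46 and 1.93 RPKM and then at 0.703, 1.13, 0.553 and 0.374 RPKM (-2.44, SE 0.44, limma adjusted p = 0.00054). In both genes all irradiated libraries lay below all unstressed ones. Calls of Slc4a1, Sptb, Ermap, Kel, Trim10 and Hbb-b1 were each lost without 1 or another single library, and with replicates 3 and 4 only, 7 of the 27 genes were called lower. Of 10 proliferation genes 6 were also called lower in irradiated wild-type B cells, among them Cdk1 (-1.35, limma adjusted p = 0.00011) and Ccnb1 (-1.17, limma adjusted p = 0.0040). Their summed level was 160 to 269 RPKM before and 165 to 189 RPKM after irradiation, so the sums overlapped. Of 8 macrophage genes 1 was called lower (Emr1, -0.93, limma adjusted p = 0.00020, named after its value was seen), of 8 B cell genes 1 was called lower, of 8 T cell genes 1 was called lower and 1 higher, and of 7 tested neutrophil genes 0 were called by limma, with 0 at an unadjusted p under 0.05. The part of these cells in the lower erythroid levels of B cells was not tested.

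Lmo2 had the smallest standard error of the 27 genes in B cells. It went from 63.8, 65.5, 69.4 and 61.6 RPKM to 28.0, 24.4, 22.1 and 29.0 RPKM in wild-type B cells (-1.32, SE 0.08, limma adjusted p = 5.87e-08) and from 63.7 and 66.5 RPKM to 37.9 and 36.8 RPKM in Trp53-/- B cells (-0.79, SE 0.11, limma adjusted p = 0.00014). It was the 1 member called in Trp53-/- B cells, where 11.2% of all genes were called lower and 13.1% higher. The difference between the genotypes' responses for Lmo2 was -0.53 (SE 0.14, limma adjusted p = 0.0195), under the fold threshold. Zfpm1 was at 14.2, 11.1, 9.75 and 12.8 RPKM and then at 19.2, 18.7, 18.6 and 20.7 RPKM in wild-type B cells, with no overlap (0.68, SE 0.11, limma adjusted p = 0.00033), and at 12.3 and 13.6 RPKM and then at 11.6 and 15.1 RPKM in Trp53-/- B cells.

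For the difference between the genotypes' responses in B cells 4 members were called, against 5.43% of all genes called lower and 6.56% called higher. The wild-type response was higher for Zfpm1 (0.64, SE 0.20, limma adjusted p = 0.0401) and lower for Car1 (-2.69, SE 0.72, limma adjusted p = 0.0225), Cldn13 (-2.13, SE 0.67, limma adjusted p = 0.0432) and Tfrc (-1.07, SE 0.17, limma adjusted p = 0.0014). Tfrc was at 26.6, 24.5, 23.7 and 25.9 RPKM and then at 14.96, 17.1, 21.9 and 17.4 RPKM in wild-type B cells. In Trp53-/- B cells it was at 28.2 and 29.1 RPKM and then at 46.7 and 39.4 RPKM. The groups of neither genotype overlapped and the fitted values had opposite signs, but both were under the fold threshold and neither was called (-0.50, limma adjusted p = 0.0013, in wild-type and 0.57, limma adjusted p = 0.0062, in Trp53-/- B cells). The call of Zfpm1 was lost without the filter, without the variance trend and with the receptor gene covariate, among other alternatives. Leaving out 1 of 10 single libraries ended the call of Cldn13, and that of Car1 was lost without unstressed Trp53-/- replicate 1 or irradiated Trp53-/- replicate 2, whereas Tfrc was called throughout. Without unstressed wild-type replicate 4 the number called lower was 6, and without either of those Trp53-/- libraries it was 1. In unstressed B cells 0 members were called between the genotypes, with 14 at an unadjusted p under 0.05 in the limma fit, and 0.0289% of all genes were called lower and 0.0217% higher.

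After irradiation fewer members were called between the fractions of wild-type mice, again with the libraries treated as independent. Of the 27 genes 7 were called higher in non-B than in B cells (Gata1, Tal1, Nfe2, Slc4a1, Sptb, Aqp1 and Trim10), against 20.3% of all genes, and 3 were called lower (Zfpm1, Car2 and Tfrc), against 15.3%. Klf1 was at similar levels in both fractions, 0.092 to 2.59 RPKM in non-B and 0.844 to 1.60 RPKM in B, with a log2 difference of -0.20 (SE 0.59). The effect of irradiation itself was compared between the fractions. It was lower in non-B than in B cells for 9 genes (Klf1, Zfpm1, Car1, Car2, Tfrc, Add2, Ermap, Icam4 and Pklr), against 9.88% of all genes, and higher for Nfe2, against 8.90%. The difference was -3.48 for Pklr (SE 0.67, limma adjusted p = 0.0011), -2.06 for Zfpm1 (SE 0.20, limma adjusted p = 4.57e-06) and 1.17 for Nfe2 (SE 0.41, limma adjusted p = 0.0437), the last of which was lost when any of 10 single libraries was left out. Zfpm1 fell in non-B and rose in B cells. Nfe2 in B cells was at 7.34, 4.54, 3.53 and 3.94 RPKM and then at 3.20, 2.25, 2.75 and 1.62 RPKM, a log2 fold change of -0.83 that did not pass the test (SE 0.38, limma adjusted p = 0.0852).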

How the data were processed

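Total RNA depleted of ribosomal RNA (Ribo-Zero) was made into TruSeq RNA v2 libraries, which do not mark strand. Per the labels and the study's methods, the authors masked bases of quality under 20, aligned reads to mm9 with TopHat (the submitters' processing notes name TopHat2 2.0.8), removed duplicate reads, and counted exonic reads with featureCounts 1.4.5. The deposited RPKM values have 3 decimals. No count table was used here, so a count test was not run. Depth was estimated from the steps between low RPKM values and gene lengths of the NCBIM37 annotation and is approximate, so floors given in reads cover counting error only.

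RPKM was tested as log2(RPKM + 0.5) with limma 3.58.1 in R 4.3.3 (eBayes with a variance trend), for genes with RPKM above 1 in at least 1 wild-type sample of the fit, over 12 libraries per cell fraction or the 16 wild-type libraries. Genes were called at a Benjamini-Hochberg adjusted p under 0.05 if their log2 fold change also passed 0.58 in size. The design matches the groups of the labels, with 4 wild-type and 2 Trp53-/- libraries per group. The study's methods count 4 wild-type and 2 Trp53-/- mice per condition, as many as the libraries of each group. The 27 members and all gene lists were chosen with earlier results of these data known. Every member found was named, and of other lists at most 5 genes with the largest change in irradiated wild-type non-B cells; genes named outside this rule are said to be so, and some that meet it are not reported here. The labels do not say what equal replicate numbers mean, and the main tests used no pairing. Deviations of same-numbered unstressed and irradiated libraries from their group means correlated at 0.156 to 0.323 in wild-type non-B cells. They correlated at 0.0152 to 0.0869 in wild-type B cells and at -0.253 in Trp53-/- non-B cells. Between same-numbered B and non-B libraries of wild-type mice, the range was -0.0494 to 0.350 before and -0.103 to 0.287 after irradiation.

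Alternatives were pseudocounts of 0.1 and 1, no filter, a filter of RPKM above 1 in 4 samples, median-ratio scaling, a replicate block, no variance trend, the adjusted p alone, the receptor gene level as a covariate, wild-type replicate pairs 1 and 2 or 3 and 4, and leaving out each library. A limit of 20% of receptor genes above 0 for irradiated wild-type libraries and a crossed block were added after seeing the data. On simulated data 200 of 200 changes of 1.5 on the log2 scale were recovered in non-B cells with 20 false calls among 13598 genes. All genes had the same spread in those data, so they do not show the power for members that varied more.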

Additional observations from a re-analysis of the deposited data

Results flagged for a closer look

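Among the 27 erythroid genes, 108 groups of 4 wild-type libraries were tested for a single library far from the other 3, and 12 stood out. A test of this kind picks about 1 in 20 groups by chance if values are normally distributed and groups are independent. RPKM was not put on a log scale here and the 27 genes varied together, so that rate is no measure for the 12. Of the 12, 9 were the same library, irradiated wild-type non-B replicate 1, and in each it was the highest: Slc4a1 at 38.8 RPKM, Trim10 at 14.2 RPKM, Sptb at 10.1 RPKM, Ermap at 9.59 RPKM, Kel at 9.54 RPKM, Rhd at 8.77 RPKM, Ank1 at 7.26 RPKM, Cldn13 at 3.96 RPKM and Add2 at 1.503 RPKM. All 9 except Trim10 are membrane genes. The share of receptor genes above 0 was 24.6% in that library, below that of replicates 3 and 4, and the reason for its position was not tested. The remaining 3 values were from irradiated wild-type B libraries: Gata1 at 1.31 RPKM and Trim10 at 1.58 RPKM in replicate 2, both the highest of their group, and Pklr at 0.404 RPKM in replicate 1, the lowest. The share of receptor genes above 0 was 47.2% in that replicate 2, which also had the lowest estimated depth (4.76 M reads), and 36.7% in that replicate 1. The part of these in the 3 values was not tested.

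Responses to irradiation differed by a direct limma test for 15 combinations of gene and contrast, from 27 genes in each contrast. Of all genes tested, 2.82% were called lower and 3.72% higher between the genotypes in non-B cells, and 5.43% and 6.56% in B cells. Between the fractions the shares were 9.88% and 8.90%. Between the genotypes, the wild-type response minus that of Trp53-/- cells was -4.64 for Car1 in non-B cells, and in B cells -2.69 for Car1, -2.13 for Cldn13, -1.07 for Tfrc and 0.64 for Zfpm1, all on the log2 scale. Between the fractions of wild-type mice, the response in non-B minus that in B cells was -3.48 for Pklr, -2.75 for Klf1, -2.32 for Add2, -2.30 for Car1, -2.18 for Icam4, -2.15 for Ermap, -2.09 for Car2, -2.06 for Zfpm1, -1.18 for Tfrc and 1.17 for Nfe2. Some calls were fragile. Leaving out any of 10 single libraries ended that of Nfe2, and in B cells between the genotypes 10 did so for Cldn13, 7 for Zfpm1 and 2 for Car1.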

How the results depend on the processing

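For irradiated wild-type non-B cells, 26 of 27 genes stayed below 0 under every alternative, but the number called lower, 19, was 6 with the receptor gene covariate, 7 with wild-type replicates 3 and 4 only, 3 with irradiated wild-type libraries under the receptor gene limit only, and 12 to 20 as each library was left out; the median was -3.21 with replicates 1 and 2 only. The number of all genes called lower was 576 in the main fit, 144 with the covariate and 292 with replicates 3 and 4 only. The cause of these changes was not tested. The replicate block gave 20 there by adding Ank1 and changed no other of these calls. A block with crossed numbers of the Trp53-/- libraries was added after seeing the data, where same-numbered Trp53-/- non-B libraries correlated at -0.253. It is no independent check and gave 22 lower genes, with 4 for the genotype difference. That difference in non-B cells (1 gene) counted 3 with replicates 1 and 2 only and 1 to 4 as libraries were left out, with medians of -2.90 to -0.69; the medians of Trp53-/- irradiation and of the unstressed comparison ranged from -1.55 to 0.72 and from -2.24 to 0.23.

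In B cells, irradiated wild-type libraries gave 7 lower genes with replicates 3 and 4 only and 0 higher with replicates 1 and 2 only. Trp53-/- B cells gave 1 higher gene with a pseudocount of 0.1, the covariate or the adjusted p alone, and 2 lower with the replicate block; leaving out libraries gave 0 to 2 higher, 1 to 2 lower and medians of -0.78 to 0.29. The genotype difference gave 0 higher genes without the filter, without the trend, with the covariate, with either replicate pair and under the receptor limit, 2 with the replicate block, and 6 lower with replicates 1 and 2 or 1 with replicates 3 and 4; leaving out libraries gave 0 to 1 higher, 1 to 6 lower and medians of -1.37 to -0.43. The unstressed comparison gave 1 lower gene with replicates 1 and 2, and 0 to 1 with medians of -1.46 to -0.26 as libraries were left out.

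Between fractions, Lmo2 was no longer called lower in unstressed libraries with replicates 1 and 2 (0 genes; 0 to 1 as libraries were left out). Irradiated libraries gave 1 lower gene with median-ratio scaling, 11 higher with the replicate block, 12 with replicates 3 and 4 and 1 under the receptor limit, and 4 to 9 higher and 1 to 3 lower as libraries were left out. The higher Nfe2 response was lost (0 genes) with a pseudocount of 1, without the filter, without the trend, with the covariate, with replicates 3 and 4 and under the receptor limit, which left 5 lower genes; leaving out libraries gave 0 to 1.

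Directions were followed gene by gene for irradiation in wild-type non-B and B cells, the genotype difference in non-B cells and the unstressed wild-type fractions. There they reversed only for genes that were not called. Other comparisons were not followed in this way, and signs changed there too. Klf1 in irradiated Trp53-/- non-B cells, for example, ranged from -1.80 to 1.06 as libraries were left out. The genotype difference of Lmo2 in non-B cells was 0.073 with the covariate, 0.028 under the receptor limit and -0.71 to 0.11 as libraries were left out, and that of Slc4a1 was -2.87 to 0.029. In irradiated wild-type B cells Tspan33 was -0.14 with the covariate, -0.25 with replicates 1 and 2, -0.043 under the receptor limit and -0.079 to 0.27 as libraries were left out, and Icam4 was -0.13 with replicates 1 and 2 and -0.10 to 0.27. Between unstressed fractions Tfrc was -0.032 with replicates 3 and 4, and Bpgm was -0.17 to 0.39 as libraries were left out.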

Other observations

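Megakaryocytes share a progenitor with red cells, and 12 of their genes were followed in the same libraries. In irradiated wild-type non-B cells 0 of the 12 were called by limma, with 2 at an unadjusted p under 0.05 and a median log2 fold change of 0.14, and their summed level was 119 to 169 RPKM before and 150 to 170 RPKM after irradiation. In Trp53-/- non-B cells 2 were called lower, Ppbp (-1.58, limma adjusted p = 0.0176) and Clec1b (-1.38, limma adjusted p = 0.0439), against 0.25% of all genes. Of the 12, 10 had an unadjusted p under 0.05 in the limma fit, with a median log2 fold change of -1.01. The summed level was 100 and 120 RPKM before and 56.1 and 69.7 RPKM after irradiation. The platelet chemokine gene Ppbp was at 26.1 and 32.3 RPKM in the unstressed and at 7.72 and 11.3 RPKM in the irradiated Trp53-/- libraries, against 36.2 to 52.9 RPKM in all 8 wild-type ones. For the difference between the genotypes' responses, 9 of the 12 had an unadjusted p under 0.05 in the limma fit, with a median of 1.01. Of the 12 genes, 3 were called, each higher in wild-type cells, against 3.72% of all genes: Clec1b (1.84, limma adjusted p = 0.0063), Ppbp (1.67, limma adjusted p = 0.0036) and Pf4 (1.60, limma adjusted p = 0.0470). These genes were named after their values were seen.

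Alas2, the first enzyme gene of erythroid haem synthesis, and the members Bpgm and Hbb-b1 were high in some libraries of the B fraction in which Klf1 and Gata1 were at 1.70 RPKM or less. This was noticed in the values and not tested. In unstressed Trp53-/- B replicate 2, Alas2 was at 73.1 RPKM, Hbb-b1 at 63.0 RPKM and Bpgm at 45.9 RPKM, with Klf1 at 1.70 RPKM and Gata1 at 0.775 RPKM. Replicate 1 of that group held 10.8, 18.4 and 11.4 RPKM of the first 3 genes, 0.640 RPKM of Klf1 and 0.172 RPKM of Gata1. Of the 27 erythroid genes, 26 were higher in replicate 2 than in replicate 1, against 49.8% of all genes tested. In unstressed wild-type B replicate 4, the same 3 genes were at 46.7, 46.8 and 29.7 RPKM, with Klf1 at 1.49 RPKM.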
